A study of Mus musculus with 12 samples.

Results

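The BCL2 family decides whether the mitochondrial outer membrane of a cell stays closed or opens in apoptosis, and 10 of its genes were followed here in mouse epididymal fat after an injection of epinephrine. The members were chosen by gene symbol: the survival genes Bcl2, Bcl2l1 and Mcl1, the BH3-only death genes Bcl2l11, Bbc3, Pmaip1, Bad and Bid, and the pore-forming effectors Bax and Bak1. All 10 had a row among the 27179 genes of the count table, and all 10 passed the filter on low counts that left 16175 genes for testing. The tissue, labelled eWAT, is the white fat pad that lies against the epididymis, taken from male C57BL/6J mice fed chow. In the vehicle group, 6 mice were injected intraperitoneally with saline, and in the epinephrine group 6 others were given sodium epinephrine at 0.5 mg/kg by the same route at the same time of the morning. The labels call the samples of a group biological replicates. Fat was collected 1 h later and its RNA was sequenced. The labels list ages that increase in steps of 1 week along the samples, from 12 to 17 weeks in the vehicle and from 18 to 23 weeks in the epinephrine group, so that listed age and treatment cannot be told apart.

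Survival members of the family hold the effectors Bax and Bak1 in check, BH3-only members bind the survival proteins or activate the effectors, and active Bax and Bak1 form pores that release cytochrome c, which switches on the caspases. Mcl1 differs from Bcl2 and Bcl2l1 in that its mRNA and protein turn over quickly, so that its level follows recent transcription. Epinephrine acts on adipocytes through beta-adrenergic receptors, cyclic AMP and protein kinase A, a kinase that also phosphorylates the Bad protein; such a change in a protein is not visible in RNA.

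The stretches around the start sites of Mcl1 and Bbc3 are shown because these were the survival member and the BH3-only member with the largest fold change up and the largest down. Mcl1 (Entrez gene 17210) spans chr3:95656944-95663179 and Bbc3 (Entrez gene 170770) spans chr7:16308398-16318334 of GRCm38.p6. Each line gives 280 bases of the RefSeq promoter table, 250 before the start site and 30 after it, 5′ to 3′ on the plus strand, from chr3:95658471-95658750 for Mcl1 and chr7:16309333-16309612 for Bbc3. Capitals mark CGTCA, the reverse complement of TGACG, the short core of the cyclic AMP response element.
Mcl1: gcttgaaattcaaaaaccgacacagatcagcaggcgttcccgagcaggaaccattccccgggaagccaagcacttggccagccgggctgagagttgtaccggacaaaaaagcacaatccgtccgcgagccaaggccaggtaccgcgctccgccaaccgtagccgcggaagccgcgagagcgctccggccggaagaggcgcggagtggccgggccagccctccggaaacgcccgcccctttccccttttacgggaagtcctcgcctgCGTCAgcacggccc
Bbc3: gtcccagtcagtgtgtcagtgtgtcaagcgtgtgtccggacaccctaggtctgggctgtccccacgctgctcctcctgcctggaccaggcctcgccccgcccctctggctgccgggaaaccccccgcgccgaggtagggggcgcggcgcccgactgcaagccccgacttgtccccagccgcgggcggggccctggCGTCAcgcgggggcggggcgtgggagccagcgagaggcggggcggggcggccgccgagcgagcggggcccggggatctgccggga
This core began at base 17 after the start in Mcl1 and at base -55 before it in Bbc3. RefSeq windows of 300 bases were found for 9 of the 10 members (not Pmaip1), 15 windows in all, and were searched on both strands. The core stood in 3 of these 15 windows, those of Bcl2, Mcl1 and Bbc3, and in 20.8% of all 32851 windows of the table. The full cyclic AMP response element TGACGTCA, which contains the core, and the AP-1 motif TGANTCA stood in 0 of the 15 windows, against 1.79% and 7.81% of all windows. A match is a description of the letters only, and the 2 genes whose sequences are printed had fold changes of opposite sign.

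Between 24821601 and 34405433 reads per library were assigned to genes, and the members drew between 122 reads (Pmaip1) and 11974 reads (Mcl1) in a library. All 12 adipocyte markers checked were detected, at a summed level of 13330 to 42000 CPM in the vehicle and 17340 to 39650 CPM in the epinephrine libraries (CPM, the usual per-megaread count, with library sizes corrected for composition by TMM in edgeR). The libraries also carried epididymal RNA in very unequal amounts. The 18 epididymis and testis markers summed to 40.2 to 46810 CPM with vehicle and to 101.7 to 34660 CPM with epinephrine, none of them at 0 in all libraries. Vehicle 2, epinephrine 1 and epinephrine 2 stood apart, with the epididymal gene Gpx5 at 1.99%, 1.09% and 0.930% of counts and at most 0.398% elsewhere. Across all genes, 428 were higher and 579 lower with epinephrine, and 385 and 365 with replicate number as a blocking term. In such bulk RNA, fewer cells of a type and less RNA per cell cannot be told apart.

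In vehicle fat the 10 members covered a 20.5-fold range of level when counts were scaled to gene length. Among them Mcl1 was highest at 52.3 ± 10.6 CPM per kilobase, followed by Bax at 35.7 ± 2.35, Bcl2l1 at 24.8 ± 2.81, Bak1 at 19.3 ± 3.82 and Bad at 17.8 ± 0.368 CPM per kilobase (SD, n = 6 each). Bid (10.1 ± 1.62), Bbc3 (6.66 ± 2.81), Bcl2l11 (4.06 ± 0.757), Bcl2 (3.69 ± 0.397) and Pmaip1 (2.55 ± 0.748 CPM per kilobase; SD, n = 6 each) were lower. The founding member Bcl2 was thus near the bottom of this order of 10. Outside the 10, the survival gene Bcl2l2 was at 32.4 CPM per kilobase, above Bcl2l1, and the mitophagy gene Bnip3 at 242.0 CPM per kilobase, above Mcl1. Some neighbours in the order lay within each other's spread (mean ± SD): Bcl2l1 and Bak1, Bak1 and Bad, Bid and Bbc3, Bbc3 and Bcl2l11, Bcl2l11 and Bcl2, and, by a narrow margin, Bcl2 and Pmaip1, whose library ranges did not overlap. Mcl1 was above Bax in 5 of 6 vehicle libraries, the exception being vehicle 2.

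**Figure D1:**
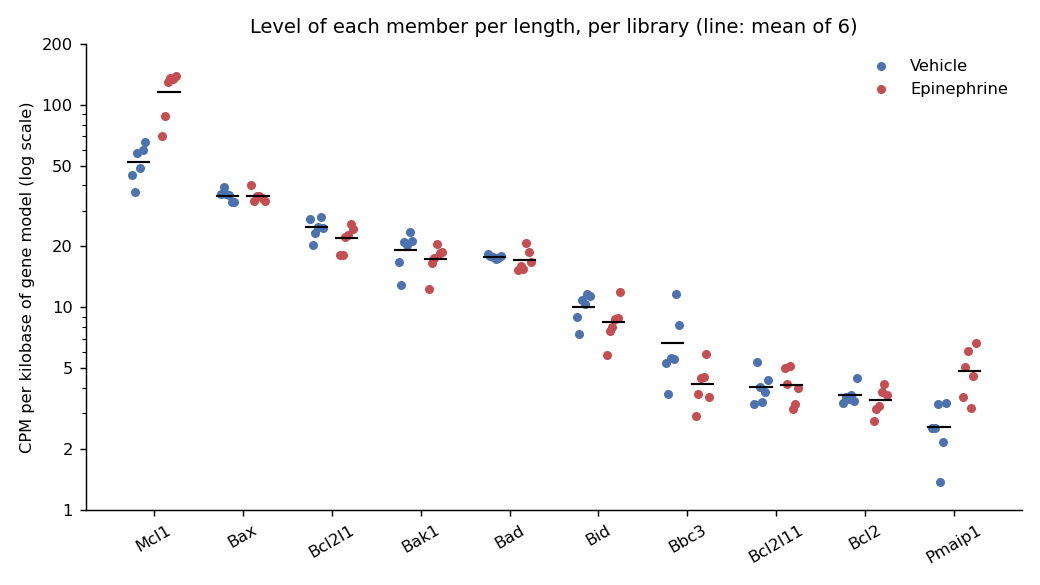
Level of each of the 10 members in CPM per kilobase of gene model, on a log axis, in 6 vehicle (blue) and 6 epinephrine (red) libraries; the black line is the mean of 6. Mcl1 was the highest of the 10 in both groups and separated further from Bax with epinephrine, while Pmaip1 moved up from the lowest place.

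After epinephrine the range was 33.5-fold. Mcl1 stood at 116 ± 29.4 CPM per kilobase, above Bax (35.4 ± 2.47) in all 6 libraries and 3.28 times its mean. Pmaip1 moved from the last place to the seventh, at 4.87 ± 1.36 CPM per kilobase, between Bid (8.51 ± 2.01) and Bbc3 (4.19 ± 1.02; SD, n = 6 each). Pmaip1, Bbc3, Bcl2l11 and Bcl2 followed each other within their spread. As a share of the summed level of the 10 members per kilobase, Mcl1 went from 29.3% ± 3.31 to 49.1% ± 5.48 (SD, n = 6 each). The 5 BH3-only genes together went from 23.3% ± 0.909 to 16.8% ± 1.40, and the effectors from 31.3% ± 2.44 to 23.1% ± 3.81 (SD, n = 6 each). In absolute terms the BH3-only sum was 41.2 ± 4.05 and 38.8 ± 3.68 CPM per kilobase and the effector sum 55.0 ± 2.07 and 52.8 ± 1.92 CPM per kilobase (SD, n = 6 each). These shares and sums are descriptions with no test.

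Of the 10 members 2 were higher with epinephrine, Mcl1 and Pmaip1, and 0 were lower (edgeR quasi-likelihood test, Benjamini-Hochberg adjusted p under 0.05 over 16175 genes); of all genes tested, 2.65% were called higher and 3.58% lower. At an unadjusted p under 0.05, 1 member was lower, Bbc3, and DESeq2 and limma on the deposited values also called 0 lower. The 7 members with a fold change below 1 and the median log2 fold change of -0.07 over the 10 stand beside 50.2% and -0.000594 for all genes tested. The signs of Bax and Bcl2l11 held in only 16 and 18 of 26 alternatives. Without the 3 libraries rich in Gpx5, 1 member was higher, Mcl1.

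**Figure D2:**
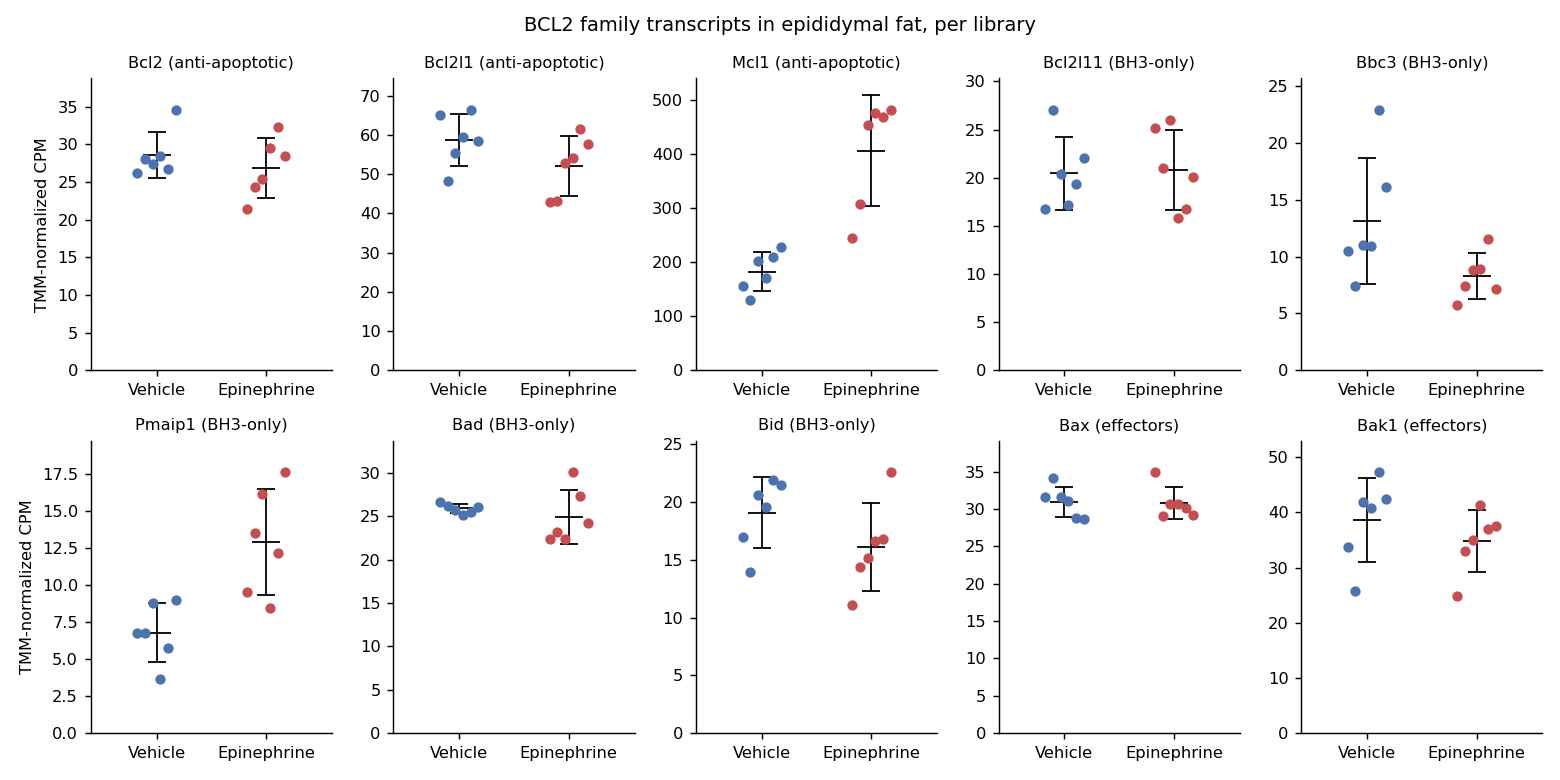
TMM-normalized CPM of each member in every library (points, replicate numbers 1 to 6 from left to right; black bars are mean and SD of 6). The Mcl1 groups do not overlap, at up to 227.5 CPM with vehicle and from 244 CPM with epinephrine, while the other 9 members overlap, Pmaip1 only between 8.44 and 8.97 CPM.

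Among the survival genes, Mcl1 rose 2.22-fold. It ran from 129 to 227.5 CPM with a median of 186 in the vehicle group, and from 244 to 482 CPM with a median of 461 in the epinephrine group. The lowest epinephrine library was above the highest vehicle library, which held in 2.04% of all genes tested. The log2 fold change of Mcl1 was 1.15 (SE 0.20, 95% interval 0.72 to 1.58, edgeR adjusted p = 0.00522). The lowest Mcl1 values of their groups were in vehicle 2 (129 CPM), epinephrine 1 (244 CPM) and epinephrine 2 (308 CPM), the same 3 libraries that were richest in Gpx5. Without them the log2 fold change was 1.29 with an SE of 0.11 (edgeR adjusted p = 0.000137). Mcl1 passed the test without each of the 12 libraries in turn, with log2 fold changes between 1.09 and 1.26. Compared within each replicate number, Mcl1 was higher with epinephrine in all 6, by 1.56-fold in number 1 to 2.80-fold in number 4; 5.19% of all genes tested were higher in all 6. The call ended within numbers 1 to 3 (log2 fold change 1.06, edgeR adjusted p = 0.45), where edgeR called 0 genes of any kind although 1356 had an unadjusted p under 0.05, and it held within numbers 4 to 6 (1.23, edgeR adjusted p = 0.00216). With listed age as a covariate the log2 fold change was 0.19 with an SE of 0.25 (edgeR adjusted p = 0.585).

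The other survival genes did not pass. Bcl2l1, which encodes Bcl-xL, ran from 48.3 to 66.5 CPM with a median of 58.9 with vehicle and from 42.9 to 61.5 CPM with a median of 53.5 with epinephrine. The groups overlapped over most of their range. Bcl2l1 was nonetheless lower in the epinephrine library of all 6 replicate numbers, with ratios from 0.659 to 0.990, as were 9.08% of all genes tested. Its log2 fold change was -0.18 (SE 0.11, 95% interval -0.41 to 0.06, edgeR adjusted p = 0.479). Bcl2, the founding survival gene, ran from 26.2 to 34.6 CPM with a median of 27.7 with vehicle and from 21.4 to 32.3 CPM with a median of 26.9 with epinephrine. Its log2 fold change was -0.09 (SE 0.10, 95% interval -0.32 to 0.14, edgeR adjusted p = 0.798), so that a change of 2-fold in either direction lies outside the interval of both Bcl2l1 and Bcl2. The ratio of Mcl1 to Bcl2l1 per kilobase was 2.11 ± 0.392 in the vehicle and 5.23 ± 0.791 in the epinephrine group (SD, n = 6 each).

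Among the BH3-only genes, Pmaip1, which encodes Noxa, a binding partner of Mcl1 that favours its degradation, rose 1.91-fold. It ran from 3.66 to 8.97 CPM with a median of 6.75 with vehicle and from 8.44 to 17.6 CPM with a median of 12.9 with epinephrine. The groups overlapped only through epinephrine 4, the lowest of its group, which lay below vehicle 3 (8.80 CPM) and vehicle 6 (8.97 CPM). Vehicle 4 was the lowest library of all, so that within number 4 the ratio was 2.31. Pmaip1 was higher with epinephrine in all 6 numbers, from 1.42-fold upward, as were 5.19% of all genes tested. The log2 fold change was 0.93 (SE 0.24, 95% interval 0.41 to 1.46, edgeR adjusted p = 0.0419). That call was close to the threshold. It ended without vehicle 1, 2, 3, 4 or 5 and without epinephrine 2, 3, 5 or 6, each left out alone, with edgeR adjusted p-values from 0.0515 to 0.0981 and log2 fold changes from 0.82 to 1.02. It also ended when scaled by library size alone (edgeR adjusted p = 0.0512), with no filter (0.0549), without the 3 libraries rich in Gpx5 (log2 fold change 1.01, edgeR adjusted p = 0.062), within numbers 1 to 3 and 4 to 6 (0.83 and 1.06, edgeR adjusted p = 0.474 and 0.152) and with listed age as a covariate (0.61, SE 0.48, edgeR adjusted p = 0.343). On the deposited variance-stabilized values the log2 difference was 0.54 and passed (limma adjusted p = 0.0384). Pmaip1 also passed with replicate number as a blocking term (0.94, SE 0.11, edgeR adjusted p = 0.00598) and by DESeq2 (0.95, adjusted p = 0.00235). Of 26 alternatives, 10 kept the call and 16 did not. The ratio of Mcl1 to Pmaip1 per kilobase was 22.0 ± 7.95 in the vehicle and 25.2 ± 9.61 in the epinephrine group (SD, n = 6 each), a difference smaller than the spread.

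Bbc3, which encodes Puma, a p53-inducible activator of Bax and Bak1, had the lowest fold change of the 10. It ran from 7.41 to 23.0 CPM with a median of 11.0 with vehicle and from 5.77 to 11.6 CPM with a median of 8.13 with epinephrine. The vehicle values were spread by vehicle 5 (23.0 CPM) and vehicle 6 (16.2 CPM), and the groups overlapped between 7.41 and 11.6 CPM. Its log2 fold change was -0.67 (SE 0.26, 95% interval -1.24 to -0.10, edgeR adjusted p = 0.195), so it did not pass over all genes. Its epinephrine value was lower in all 6 replicate numbers, as in 9.08% of all genes tested, with ratios from 0.441 to 0.999, the last being number 2. With replicate number as a blocking term the log2 fold change was -0.61 (edgeR adjusted p = 0.112), and Bbc3 passed only with listed age as a covariate (-1.68, edgeR adjusted p = 0.0169), among all 26 alternatives. The ratio of Bbc3 to Pmaip1 per kilobase was 2.84 ± 1.54 in the vehicle and 0.921 ± 0.346 in the epinephrine group (SD, n = 6 each), and it was 1.47 or more in every vehicle library and 1.42 or less in every epinephrine library. These are the BH3-only members with the largest changes down and up, so such a separation is in part built in, and it was not tested.

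The remaining BH3-only genes did not pass. Bcl2l11, which encodes Bim, ran from 16.7 to 27.1 CPM with a median of 19.9 with vehicle and from 15.8 to 26.0 CPM with a median of 20.5 with epinephrine. Its groups covered nearly the same range, and the log2 fold change was 0.02 (SE 0.15, 95% interval -0.31 to 0.36, edgeR adjusted p = 0.976). Bid, whose protein is activated by the caspase of the death receptors, ran from 14.0 to 21.9 CPM with a median of 20.1 with vehicle and from 11.1 to 22.6 CPM with a median of 15.9 with epinephrine. Epinephrine 6 was the highest Bid library of all and the other 5 were at or below 16.8 CPM (log2 fold change -0.24, SE 0.16, 95% interval -0.60 to 0.11, edgeR adjusted p = 0.533). Bad was the steadiest member with vehicle, from 25.2 to 26.7 CPM with a median of 25.9, and ran from 22.3 to 30.1 CPM with a median of 23.7 with epinephrine. Its epinephrine libraries lay on either side of all the vehicle ones (log2 fold change -0.06, SE 0.08, 95% interval -0.23 to 0.11, edgeR adjusted p = 0.839).

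The effectors did not pass either: 0 of 2 were called by edgeR, DESeq2 or limma on the deposited values, and 0 had an unadjusted edgeR p under 0.05. Bax ran from 28.7 to 34.2 CPM with a median of 31.4 with vehicle and from 29.1 to 34.9 CPM with a median of 30.4 with epinephrine. It had the narrowest interval of the 10, with a log2 fold change of -0.01 (SE 0.06, 95% interval -0.15 to 0.13, edgeR adjusted p = 0.978), or 0.903 to 1.09 as a fold. Bak1 ran from 25.8 to 47.3 CPM with a median of 41.3 with vehicle and from 24.8 to 41.4 CPM with a median of 36.0 with epinephrine. Its lowest values were in vehicle 2 and epinephrine 1 (log2 fold change -0.15, SE 0.15, 95% interval -0.49 to 0.18, edgeR adjusted p = 0.742). The ratio of Bcl2 to Bax per kilobase, often taken as a measure of the balance of survival and death, was 0.104 ± 0.0160 in the vehicle and 0.0987 ± 0.0180 in the epinephrine group (SD, n = 6 each), a difference smaller than the spread.

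**Figure D3:**
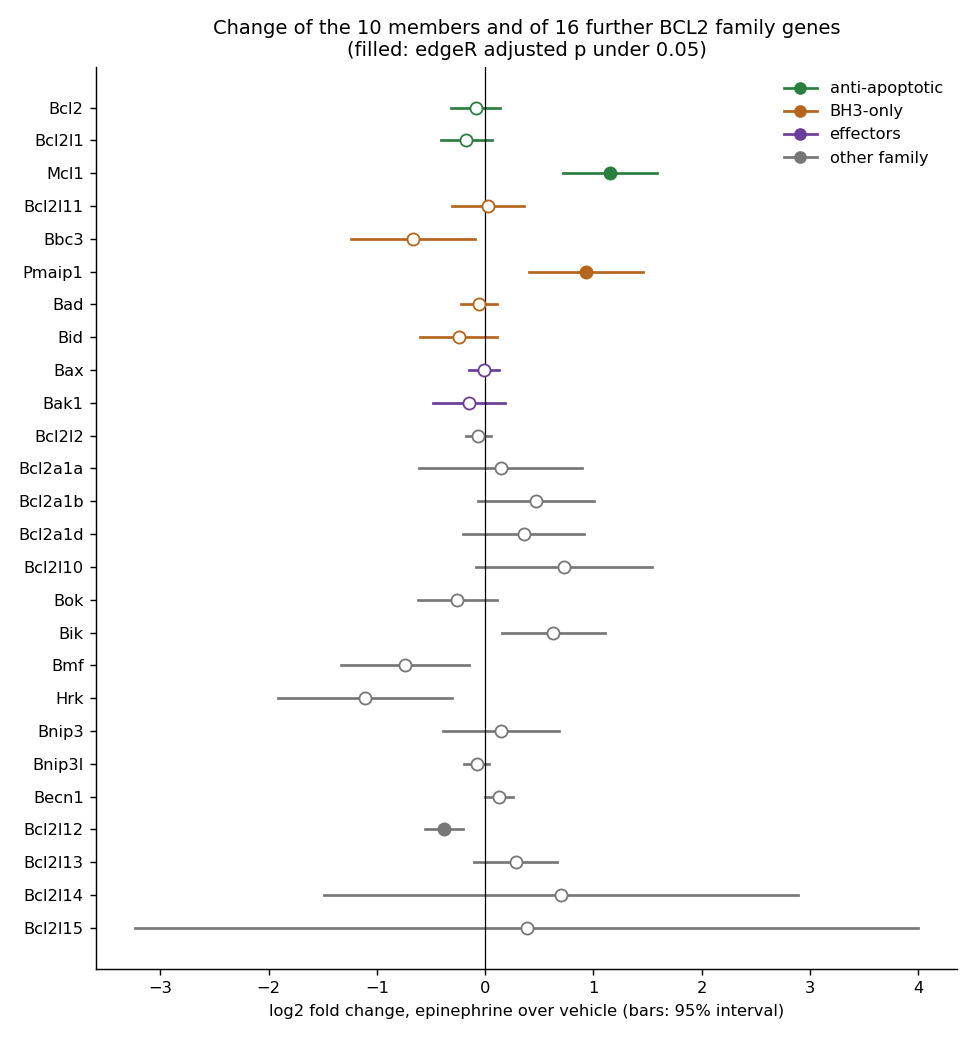
Log2 fold change of epinephrine over vehicle for the 10 members and for 16 further genes of the BCL2 family, with 95% intervals from the edgeR fit; filled points passed at an adjusted p under 0.05. Mcl1 and Pmaip1 are the filled points to the right and Bcl2l12 the filled point to the left, and the wide intervals of Bcl2l14 and Bcl2l15 show the spread of these genes between libraries.

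Of 16 further genes of the family, 0 were higher and 1 was lower with epinephrine, a share of 6.25% called against 6.23% of all genes tested. At an unadjusted edgeR p under 0.05, 1 was higher and 3 were lower. DESeq2 called 1 higher, Bik, and 2 lower, Hrk and Bcl2l12. Without the 3 libraries rich in Gpx5, 1 was higher and 3 were lower. The median log2 fold change of the 16 was 0.14. The gene called lower by edgeR in the reported fit was Bcl2l12, a member found in the nucleus and cytosol that binds p53. It ran from 9.32 to 10.9 CPM with a median of 10.3 with vehicle and from 7.20 to 8.89 CPM with a median of 7.58 with epinephrine. The groups did not overlap, as for lower values in 2.74% of all genes tested, and the log2 fold change was -0.38 with an SE of 0.08 (edgeR adjusted p = 0.0153). The call ended with listed age as a covariate (-0.26, edgeR adjusted p = 0.224) and within numbers 1 to 3 or 4 to 6 (edgeR adjusted p = 0.522 and 0.135). The survival gene Bcl2l2, which encodes Bcl-w, stood at 112 ± 5.95 CPM in the vehicle group and 107 ± 5.30 CPM in the other (SD, n = 6 each, a log2 fold change of -0.06; edgeR adjusted p = 0.654). The 3 copies of the survival gene A1 were rare, with Bcl2a1a at 0.477 ± 0.223 and 0.527 ± 0.192 CPM, Bcl2a1b at 2.84 ± 0.849 and 3.94 ± 1.11 CPM and Bcl2a1d at 1.82 ± 0.486 and 2.33 ± 0.703 CPM (vehicle and epinephrine; SD, n = 6 each). These copies are near-identical, so the division of reads among them is uncertain, and 0 of the 3 passed; the oocyte-enriched survival gene Bcl2l10 did not pass at 1.25 ± 0.763 and 2.08 ± 0.481 CPM.

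The further BH3-only genes pointed in different directions, none past the threshold. Bmf, whose protein is held at the cytoskeleton, was at 25.0 ± 6.80 CPM in the vehicle and 15.0 ± 6.46 CPM in the epinephrine group (SD, n = 6 each, with a log2 fold change of -0.74 and SE 0.27; edgeR adjusted p = 0.163). It passed without epinephrine 1 (-0.98, edgeR adjusted p = 0.0244), without the 3 libraries rich in Gpx5 (-0.98, edgeR adjusted p = 0.00958), within numbers 4 to 6 (-1.01, edgeR adjusted p = 0.0218) and with a score of the epididymal markers as a covariate (-0.86, edgeR adjusted p = 0.00232). Hrk was at 1.43 ± 0.541 and 0.661 ± 0.294 CPM (SD, n = 6 each, with a log2 fold change of -1.11 and SE 0.37; edgeR adjusted p = 0.114) and passed without the 3 libraries rich in Gpx5 (edgeR adjusted p = 0.0498), when scaled by library size alone (edgeR adjusted p = 0.0439) and by DESeq2 (adjusted p = 0.048). Bik, a BH3-only gene of the endoplasmic reticulum, was at 2.68 ± 0.523 and 4.15 ± 1.27 CPM (SD, n = 6 each, with a log2 fold change of 0.63 and SE 0.22; edgeR adjusted p = 0.135), and passed without epinephrine 1 (0.74, edgeR adjusted p = 0.0377), without the 3 libraries rich in Gpx5 (0.85, edgeR adjusted p = 0.0166), within numbers 4 to 6 (1.05, edgeR adjusted p = 0.0207) and by DESeq2 (adjusted p = 0.0435). The effector relative Bok was at 18.3 ± 2.56 and 15.4 ± 3.82 CPM (SD, n = 6 each; edgeR adjusted p = 0.527). Among the BNIP3 and beclin genes of mitophagy and autophagy, Bnip3 was the most abundant of the 16 at 425 ± 127 and 469 ± 114 CPM, Bnip3l was at 132 ± 7.49 and 125 ± 5.63 CPM, and Becn1 at 84.0 ± 4.96 and 91.8 ± 6.48 CPM (SD, n = 6 each), with edgeR adjusted p-values of 0.886, 0.552 and 0.3. Bcl2l13, another mitochondrial member, was at 99.8 ± 21.9 and 121 ± 23.7 CPM (SD, n = 6 each; edgeR adjusted p = 0.498). Bcl2l14 and Bcl2l15 spread over most of the scale, from 0.177 to 8.24 and from 0.0590 to 153 CPM within the vehicle group alone. Bcl2l15 was highest in vehicle 2 (153 CPM), epinephrine 2 (144 CPM) and epinephrine 1 (109 CPM), the 3 libraries richest in Gpx5. With the epididymal score as a covariate, Bcl2l14 and Bcl2l15 had log2 fold changes of 0.49 and -0.57 (edgeR adjusted p = 0.584 and 0.274). The part of epididymal RNA in these 2 genes was not tested beyond the fits on epididymal RNA.

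In the machinery downstream of the mitochondrion, 1 of 18 genes was higher and 0 were lower, or 5.56% called against 6.23% of all genes tested. At an unadjusted edgeR p under 0.05, 1 was higher and 2 were lower, and DESeq2 also called 0 lower. The median log2 fold change was 0.04. The higher gene was Cycs, which encodes cytochrome c, a carrier of the respiratory chain as well as the signal released by Bax and Bak1. It was at 25.6 ± 3.56 CPM in the vehicle and 33.7 ± 2.85 CPM in the epinephrine group (SD, n = 6 each, with a log2 fold change of 0.40 and SE 0.09; edgeR adjusted p = 0.0286), and the groups overlapped through vehicle 5 (31.3 CPM) alone. Its call ended with replicate number as a blocking term (edgeR adjusted p = 0.0911), with no filter (0.0537), with listed age (0.386), within numbers 1 to 3 or 4 to 6 (0.346 and 0.211) and without vehicle 1 or 3 or epinephrine 2, 3, 4 or 5 (0.057 to 0.0738). The caspase genes Casp6 and Casp2 were next by p, with log2 fold changes of -0.19 and -0.57 and edgeR adjusted p-values of 0.181 and 0.187. Casp2 passed without epinephrine 1 (-0.73, edgeR adjusted p = 0.0471), with the epididymal score as a covariate (-0.65, edgeR adjusted p = 0.0114) and without the 3 libraries rich in Gpx5 (-0.75, edgeR adjusted p = 0.00842). The initiator caspase gene Casp9 passed as lower in the last 2 of these fits (-0.27 and -0.28, edgeR adjusted p = 0.0429 and 0.013), so that 2 of the 18 genes were lower in each. The apoptosome gene Apaf1 had a log2 fold change of 0.00 (edgeR adjusted p = 0.999).

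Among the caspase inhibitors and the death receptor arm, 14 of 15 genes were tested, of which 1 was higher and 3 were lower, or 28.6% called against 6.23% of all genes, with a median log2 fold change of -0.12. Tnfrsf10b, which encodes the mouse receptor for the death ligand TRAIL and is a target of p53 and CHOP, rose 5.64-fold. It ran from 5.96 to 10.6 CPM with a median of 8.56 with vehicle and from 26.1 to 64.1 CPM with a median of 52.7 with epinephrine (log2 fold change 2.50 with an SE of 0.23; edgeR adjusted p = 0.000118). The ligand gene Tnfsf10 (TRAIL) fell to 0.433 of its vehicle level. It ran from 13.7 to 29.4 CPM with a median of 22.3 with vehicle and from 4.17 to 13.0 CPM with a median of 9.89 with epinephrine (log2 fold change -1.21 with an SE of 0.25; edgeR adjusted p = 0.0143). With listed age as a covariate the log2 fold changes were 1.42 for Tnfrsf10b and -2.23 for Tnfsf10 (edgeR adjusted p = 0.0137 and 0.00603). Receptor and ligand thus moved in opposite directions, each with groups that did not overlap. Of all genes tested, 2.04% had no overlap with higher values and 2.74% with lower values. The adaptor genes Fadd and Tradd, which link death receptors to the initiator caspase, fell from 16.7 ± 1.61 to 12.7 ± 0.845 CPM and from 13.6 ± 0.981 to 10.9 ± 0.606 CPM (SD, n = 6 each; edgeR adjusted p = 0.0102 and 0.0167). The groups of Fadd and Tradd did not overlap either. With the replicate number as a block, Tradd no longer passed (edgeR adjusted p = 0.0644), nor did it with listed age (0.117) or within numbers 4 to 6 (0.111). Cflar, the inhibitor of that caspase, had a log2 fold change of -0.12 (edgeR adjusted p = 0.798), and Fasl was too rare to be tested, with 1 to 17 reads in a library.

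**Figure D4:**
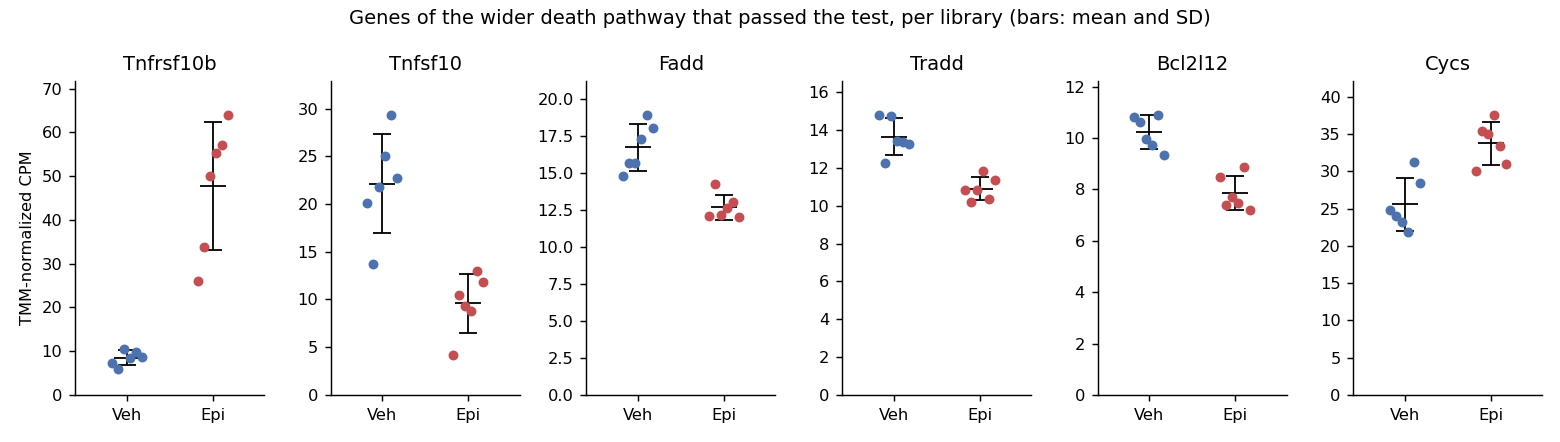
TMM-normalized CPM in each vehicle (Veh) and epinephrine (Epi) library of 6 genes outside the 10 members that passed the test (points by replicate number; bars are mean and SD of 6). Tnfrsf10b lies above 26 CPM in every epinephrine library and at or below 10.6 CPM in every vehicle one, while Tnfsf10, Fadd, Tradd and Bcl2l12 lie lower with epinephrine and Cycs overlaps.

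Among 27 genes that control BCL2 family members, 4 were higher and 0 lower, or 14.8% called against 6.23% of all genes tested. At an unadjusted edgeR p under 0.05, 9 were higher and 1 was lower, and DESeq2 also called 0 lower. The 4 genes called by edgeR were transcription factor genes. Atf4 and Ddit3 (CHOP), of the integrated stress response, which are known to act on Pmaip1, Bbc3 and Bcl2l11, rose 2.04-fold and 1.64-fold (edgeR adjusted p = 0.000108 and 0.00358). The AP-1 genes Jun and Fos rose 13.5-fold and 9.58-fold (edgeR adjusted p = 3.8e-05 and 0.00411). With listed age as a covariate, Atf4 and Jun had log2 fold changes of 0.96 and 2.40 (edgeR adjusted p = 0.00867 and 0.00119). Ddit3 and Fos did not pass in that fit (log2 fold changes 0.44 and 0.99, edgeR adjusted p = 0.133 and 0.275). The gene of p53 itself, Trp53, was at 42.7 ± 3.17 and 39.5 ± 2.06 CPM and its antagonist Mdm2 at 46.6 ± 1.99 and 52.4 ± 2.16 CPM (SD, n = 6 each; edgeR adjusted p = 0.399 and 0.0552). Huwe1 and Usp9x, which add and remove ubiquitin on the Mcl1 protein, had log2 fold changes of 0.13 and 0.11 and did not pass (edgeR adjusted p = 0.472 and 0.9). With the replicate number as a block 7 of the 27 were higher, the added ones being Ywhaz, Myc and Pim3, and by DESeq2 also 7, with Mdm2, Stat3 and Ywhaz. Without the 3 libraries rich in Gpx5, 8 were higher, with Mdm2, Stat3, Ywhaz and Pim3 added, and 9 were higher in the fit on the epididymal score, with Myc as well; 0 were lower in these 4 fits. Of 6 BAG genes, named for a partner of Bcl2, 1 was higher, or 16.7% called against 6.23% of all genes tested. This was Bag3, a co-chaperone induced by heat shock, which rose 3.75-fold (edgeR adjusted p = 2.4e-05). With listed age as a covariate its log2 fold change was 1.65 (edgeR adjusted p = 0.00376). Bag4 and Bag2, next by p, were at log2 fold changes of -0.29 and 0.66 (edgeR adjusted p = 0.242 and 0.585). Of the 6, 0 were lower, with 1 lower at an unadjusted edgeR p under 0.05 and 0 lower by DESeq2.

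Of 10 lists of cell type markers, 3 had a member past the edgeR test. These were 4 of 94 markers tested, or 4.26% against 6.23% of all genes: Cldn5 and Gzmb were higher and Ncr1 and Hbb-bs lower. Ncr1 and Hbb-bs were not called with the replicate block, by limma or without the 3 libraries rich in Gpx5. Cldn5 was not called by limma. In the adipocyte, B cell, neutrophil, fibroblast, mesothelial and epididymal lists 0 members had an unadjusted edgeR p under 0.05 and DESeq2 called 0. In the macrophage list edgeR called 0, with 1 higher and 2 lower at an unadjusted p under 0.05. Of its 12 markers 2 had a positive log2 fold change, and the median was -0.08. DESeq2, limma and the fit with the replicate block called Cd14 higher. The fits on the epididymal score and without the 3 libraries rich in Gpx5 called Cd14 higher and Ccr2 lower. The macrophage markers summed to 888 to 1944 CPM with vehicle and 842 to 2334 CPM with epinephrine, and the endothelial ones to 768 to 1861 and 911 to 1955 CPM. No listed marker was at 0 in all libraries. The part of cell composition in the changes of Mcl1 and Pmaip1 was not tested beyond the fits on epididymal RNA, in which the score of the epididymal list as a covariate gave Mcl1 a log2 fold change of 1.19 and Pmaip1 of 0.94 (edgeR adjusted p = 0.000164 and 0.0305).

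For the 3 members with the smallest p, the genes whose deviations from the group means over 12 libraries were most like theirs were sought among 13688 others. For Mcl1 these were Ugp2, Nrros and Efhd2 (Pearson r of 0.974, 0.965 and 0.965), for Pmaip1 they included Morc3 and Itm2a (0.772 and 0.762), and for Bbc3 Mpdu1, Nol6 and Aldoa (0.972, 0.964 and 0.955). These are descriptions over 12 libraries that share a variable epididymal content. Ugp2, Nrros and Efhd2 themselves had log2 fold changes of 0.18, 0.10 and 0.15 between the groups and did not pass (edgeR adjusted p = 0.583, 0.939 and 0.772). Of the genes named here, Morc3 passed, in the direction opposite to Pmaip1 (-0.27, edgeR adjusted p = 0.0472).

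**Figure D5:**
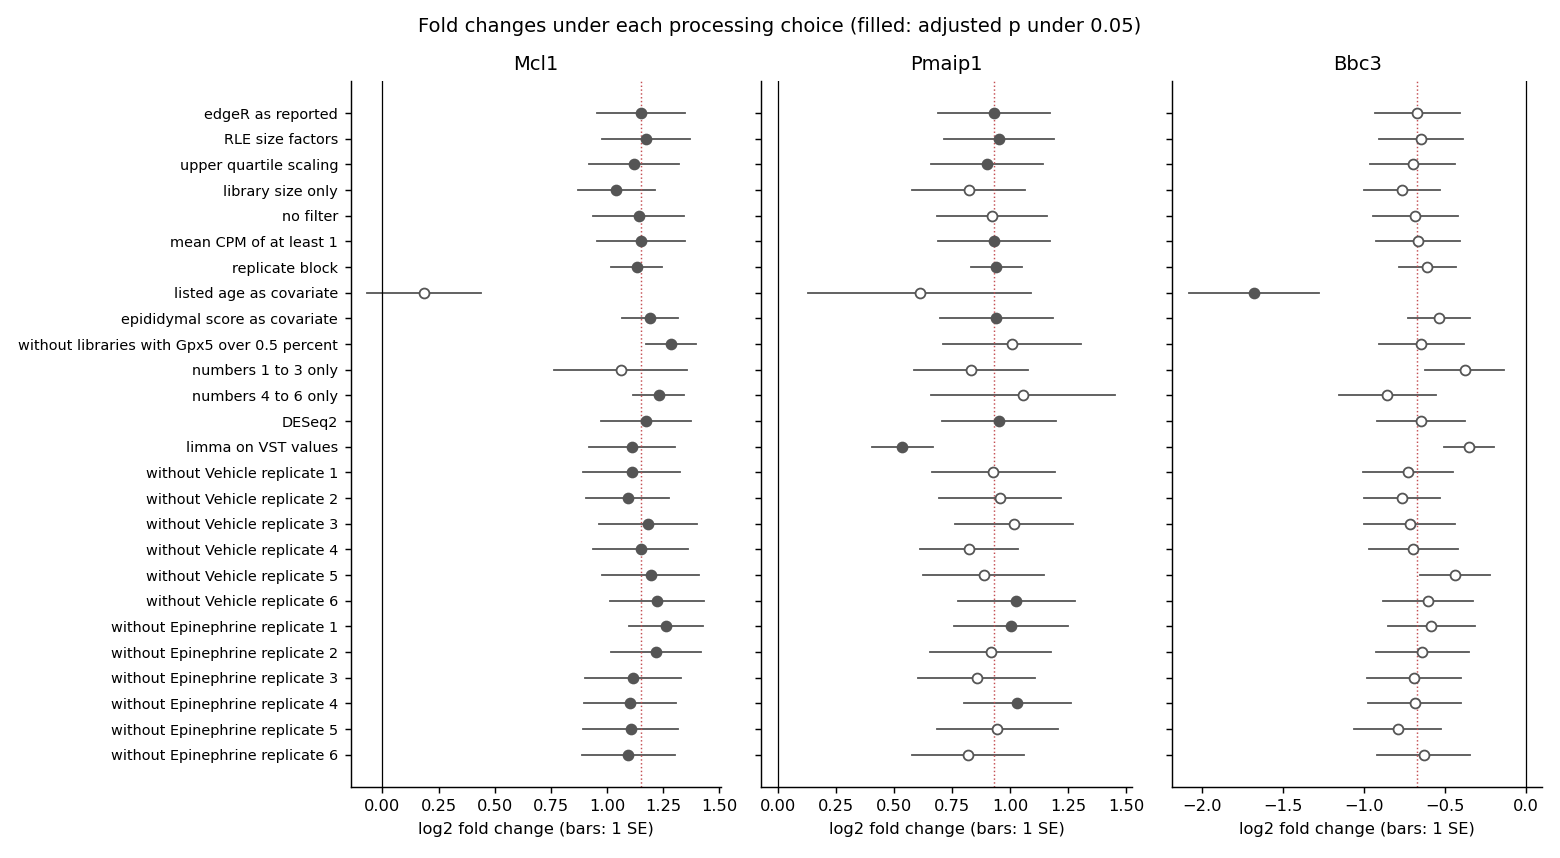
Log2 fold change of Mcl1, Pmaip1 and Bbc3 (bars are 1 SE) as reported and under each alternative; filled points passed at an adjusted p under 0.05 and the dotted line is the reported value. Mcl1 keeps its place except with listed age as a covariate (0.19). Pmaip1 crosses the threshold in many settings, at log2 fold changes from 0.54 (limma) to 1.06 against 0.93 as reported, and stands at 0.61 with listed age. Bbc3 is filled only with listed age.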

How the data were processed

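Per the labels' protocols, RNA of 12 mouse fat samples, 6 per group, was purified on columns and prepared with the SMARTER mRNA kit. Groups and replicate numbers came from the sample titles; the labels call the samples biological replicates. Among the tools, featureCounts, HISAT2, DESeq2, FastQC and cutadapt appear in the submitters' processing notes, with mm10 as the build; their versions, the annotation and the strand setting were not given in the sources used here. Without strand, reads cannot be told apart where gene models overlap, which touches Bcl2l1 (Cox4i2), Bcl2l11 (Acoxl), Bad (Gpr137) and Bak1 (Ggnbp1). The authors deposited whole-number counts of reads per gene, not normalized, and the gene length, used here only for levels per kilobase. They also deposited variance-stabilized values on a log2 scale, used in 1 alternative. Models without a symbol (1312, at most 0.315% of counts) stayed in the tests.

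Genes were filtered with filterByExpr (minimum count 10, minimum total 15), scaled by TMM and tested with edgeR 4.0.16 (quasi-likelihood, robust) in R 4.3.3, with limma 3.58.1 and DESeq2 1.42.0 as alternatives. P-values were adjusted by Benjamini-Hochberg over the 16175 genes, with a threshold of 0.05. The SE is the unshrunk log2 fold change over the square root of F, and 95% intervals use its degrees of freedom. Log2 CPM used a prior count of 1. No 2 of 66 pairs of libraries held identical counts. Same-numbered libraries deviated together (r from 0.314 to 0.85 over 13689 genes, all 6 above 0.1), although only 2 of 12 libraries correlated best with their own number and the titles give no shared batch. The values reported are from the fit without the block. Calls among the members, lists and markers that the block changed are stated where those genes are named.

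The members, lists, alternatives and tests were chosen with earlier results of these data known. Named were all 10 members, all further family genes, the genes of each other list past the threshold with up to 3 of smallest p, and the 3 genes most like each of 3 members, of which 1 is not reported here; Cflar, Fasl, Apaf1, Casp9, Trp53, Mdm2, Huwe1, Usp9x, Stat3, Ywhaz, Myc, Pim3 and the marker genes named were added after their values were seen. The alternatives comprised scaling by RLE, upper quartile or library size, 2 filters, DESeq2, limma, replicate number as a block, and listed age or the epididymal score (the average log2 CPM over 18 epididymis and testis markers) as a covariate, fits without 3 libraries with Gpx5 over 0.5% of counts, within numbers 1 to 3 and 4 to 6, 0.01 as the threshold, and each library left out in turn. Promoter windows are RefSeq, GRCm38.p6.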

Additional observations from a re-analysis of the deposited data

Results flagged for a closer look

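In 80 groups of 6 libraries (40 named genes), 6 had a highest library whose gap to the next, divided by the group's range, was above Dixon's critical value; chance gives about 5% of groups. Among the members, Bcl2 in vehicle 6 reached 34.6 CPM, where the rest of its group lay between 26.2 and 28.5 CPM (gap ratio 0.730). Bax in epinephrine 1 was at 34.9 CPM against 29.1 to 30.7 CPM (0.719). Outside the members, Bcl2l15 in vehicle 2 was at 153 CPM against 0.059 to 31.3 CPM (0.796), Becn1 in vehicle 2 at 93.9 against 81.2 to 84.0 CPM (0.776), Bag2 in epinephrine 1 at 23.3 against 5.49 to 9.88 CPM (0.753), and Bik in vehicle 1 at 3.68 against 2.18 to 2.74 CPM (0.632). Of these 6 values, 4 are in vehicle 2 or epinephrine 1, which are among the 3 richest in Gpx5; the part of epididymal RNA was not tested.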

How the results depend on the processing

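Of the 26 alternatives, 24 kept the call of Mcl1 and all kept its sign, as they did the sign of Pmaip1, whose call 10 kept. The counts of genes higher and lower, 428 and 579 as reported, were 360 and 1448 by library size alone (median of all genes -0.11), 385 and 365 with the replicate block, 2339 and 1528 with listed age, 697 and 997 with the epididymal score, 786 and 1028 without the 3 libraries rich in Gpx5, 0 and 0 within numbers 1 to 3 (1356 at an unadjusted edgeR p under 0.05), 696 and 632 within numbers 4 to 6, 760 and 873 by DESeq2, and 228 and 185 at a threshold of 0.01. Without each library in turn they ran from 317 to 549 and from 276 to 797. The lower count moved by over 1.5 times without vehicle 1 (353), 3 (364) or 4 (276) and epinephrine 3 (362), 4 (314) or 5 (373). Members called higher numbered 1 (Mcl1) by library size alone, with no filter, without the 3 libraries rich in Gpx5, within numbers 4 to 6 and at 0.01; 0 within numbers 1 to 3 and with listed age; and 1 to 2 without each library. Members called lower numbered 0 throughout, except 4 with listed age (Bak1, Bbc3, Bcl2 and Bid). Listed age rises by 1 week per sample across both groups, so this fit extends a trend over replicate numbers from 1 group to the other. The epididymal score also ran along these numbers. It was 4.97 in vehicle 1, then fell from 9.21 in vehicle 2 to -1.36 in vehicle 6, and from 9.08 in epinephrine 1 to 0.479 in epinephrine 6. With listed age, Bcl2l15 had a log2 fold change of 13.0, against 0.39 as reported. The replicate block changed no call among the 10 members. Pmaip1, with 122 to 438 reads in a library, had the lowest single count of the 10. In the epinephrine group its mean of 12.9 CPM was above that of Bbc3 (8.28 CPM). The causes of these differences were not tested.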
